A study of Mus musculus with 18 samples.

Results

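The comparison asked whether gene expression in the mouse vestibular organ changed differently between late gestation (E18.5) and postnatal day 15 (P15) in mice lacking Igf1 and in wild-type mice. It is the difference of 2 differences, (P15 minus E18.5 in Igf1 -/- mice) minus (P15 minus E18.5 in Igf1 +/+ mice), called the interaction here. It compares 12 of the 18 arrays of the series, 3 in each of 4 groups, while the normalization and the spread behind the p-values come from all 18, the P90 arrays included. The groups were Igf1 -/- embryos at E18.5, Igf1 +/+ embryos at E18.5, Igf1 -/- mice at P15 and Igf1 +/+ mice at P15, all on a hybrid background of Mf1 and 129/sv. The labels give no conditional allele or Cre. Animals were perfused with 4% paraformaldehyde before the inner ear was dissected. The labels call the arrays of a group biological replicates without giving the number of animals behind each array, and p-values refer to the spread among arrays, which may be technical in part. The labels of the P15 Igf1 +/+ arrays disagree in 1 free-text field, which reads Igf1 -/-, whereas their title, source and genotype entry read Igf1 +/+. The groups follow the title.

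The vestibular organ holds the sensory patches of the utricle, saccule and semicircular canals, in which hair cells and supporting cells lie under otoconia or a gelatinous cupula and are served by neurons of the vestibular ganglion. It sits in a capsule that forms as cartilage and is replaced by bone around birth, close to marrow and to small muscles of the middle ear and skull. Igf1 is a secreted growth factor that acts through the receptor Igf1r, is required for normal body growth before and after birth, and promotes differentiation and growth of skeletal muscle and of bone. Skeletal muscle matures over the same weeks by exchanging embryonic and neonatal myosins for adult fast and slow ones and by expanding its calcium store and its creatine and glycogen metabolism.

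Values are log intensities of unstated base, and the natural log is likely because the highest value in the table, 10.03, then corresponds to an intensity of 22700, whereas log2 would make it 1050. Differences are left in log units, each of which is a factor of 2.72 in natural logs or of 2 in log2. A negative interaction means that a gene rose less or fell more in the null than in the wild type. It is given with its standard error, and a gene was called where limma's p-value, adjusted by Benjamini and Hochberg over 19938 genes, was under 0.05.

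Markers of the labelled organ were measured in all 12 arrays. The hair cell myosin Myo7a lay between 4.37 and 5.14 and the otoconial protein Oc90 between 3.74 and 8.56, while the hair cell factor Pou4f3 reached 1.81 in the lowest P15 array. Markers of other tissues were present as well: the muscle creatine kinase Ckm lay between 6.46 and 7.99, the bone protein Ibsp between 5.04 and 8.64 and the erythroid enzyme Alas2 between 5.11 and 7.12. In such bulk samples, fewer cells of a type and less RNA per cell cannot be told apart. The arrays differed in more than their labels: within the E18.5 null group, the mean correlation of an array with its own group was 0.974 to 0.977, against 0.985 to 0.988 in the other 9 arrays. E18.5 null 2 and 3 stood apart from E18.5 null 1 on the third principal component, which held 5.5% of the variance (16.3 and 18.8 against -9.4). P90 wild type 1 and 2 also lay high on it, at 13.5 and 17, so this grouping crossed age and genotype. E18.5 null 1 was nearest to a wild-type array. E18.5 null 2 was the only one of the 6 E18.5 arrays with a high level of the brown fat protein Ucp1 (6.47, against 2.25 to 2.79 in the other 5). Female-expressed Xist (7.31 to 8.01) and the mean of Y-linked genes (5.23 to 5.95) were both high in all 6 E18.5 arrays. At P15 the sex composition was uneven: Xist and the Y-linked mean were 8.09 and 3.29 in null 2, 4.09 and 6.31 in null 3, and 5.34 and 6.19 in wild type 2.

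Across genes, the change with age was similar in both genotypes. Between E18.5 and P15, 8128 genes (40.8% of those tested) changed in the null and 8283 (41.5%) in the wild type. The 2 changes share no array, and across the 19938 genes they correlated with r = 0.906, the regression slope of the null change on the wild-type change being 0.869 and that of the reverse regression 0.944. Genes are not independent replicates, the arrays were normalized together, so these values are a description only. Against this background the interaction was called for 29 genes, 0.145% of those tested, with 26 lower (0.13%) and 3 higher (0.015%). Fitted on the 12 arrays alone, without the P90 arrays, it was called for 10 genes, 7 of them among the 29.

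**Figure D1:**
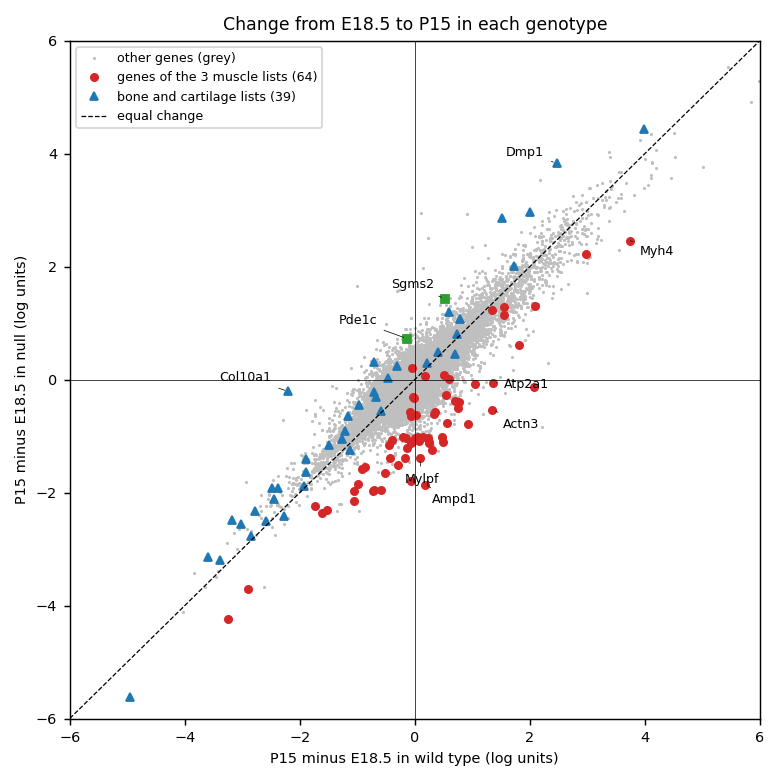
Change from E18.5 to P15 in the wild type (horizontal axis) and in the null (vertical axis), in log units, with 1 point per gene for 19938 genes and a dashed line of equal change. Genes of the 3 muscle lists (red, 64 genes) lie below the line, with 1 of them above it, while most bone and cartilage genes (blue, 39 genes) lie above it.

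Genes of skeletal muscle made up most of the 29 calls, but listed muscle genes were not the majority in every alternative fit. Of the 26 genes called lower, 16 belong to 3 lists of muscle genes. The lists cover fast contraction, slow and heart-type contraction, and calcium, energy and excitation, and hold 64 of the 19938 genes tested. Of all genes 0.13% were called lower. Fitted on the 12 arrays of E18.5 and P15 alone, 3 of the 10 called genes were in these lists, a minority. The lists also held a minority, 3 of 7, when the 4 arrays set apart by the third component had their own coefficient. With Xist minus the Y-linked mean as a covariate they held 13 of 24. The 23 genes called lower that were not dim (a dim gene has its highest group mean below 3.40, the 20th percentile of genes) ran from -2.04 to -0.89. In all 23 the 3 null arrays lay above the 3 wild-type arrays at E18.5, and in 21 they also lay below them at P15, a crossover that 146 of all genes (0.732%) showed. That arrangement is part of what the interaction measures and is given as a description. Of the same 23 genes, 21 fell and 1 rose in the null (of all genes 20.5% fell and 20.3% rose there), whereas 7 rose and 1 fell in the wild type (19.7% and 21.9% of all genes). At E18.5 alone 7 of the 23 differed between genotypes at the threshold (0.0802% of all genes), and at P15 alone 0 of the 23 did (0.015% of all).

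The number of calls depended on which arrays were used. It was 8 without E18.5 null 2, 62 without E18.5 null 3, 9 without E18.5 wild type 1, 9 without E18.5 wild type 3, 48 without P15 null 1, 14 without P15 null 2, 6 without P15 null 3, 4 without P15 wild type 1, 8 without P15 wild type 3, and 0 without both E18.5 null 2 and 3 (limma, with 1043 genes at an unadjusted p under 0.05, against 1697, or 8.51%, with all arrays). All 29 genes kept their sign in each of these fits. They were called for large interactions in these same arrays, so a kept sign is no separate support. At an adjusted p under 0.1, 85 genes (0.426%) were called.

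**Figure D2:**
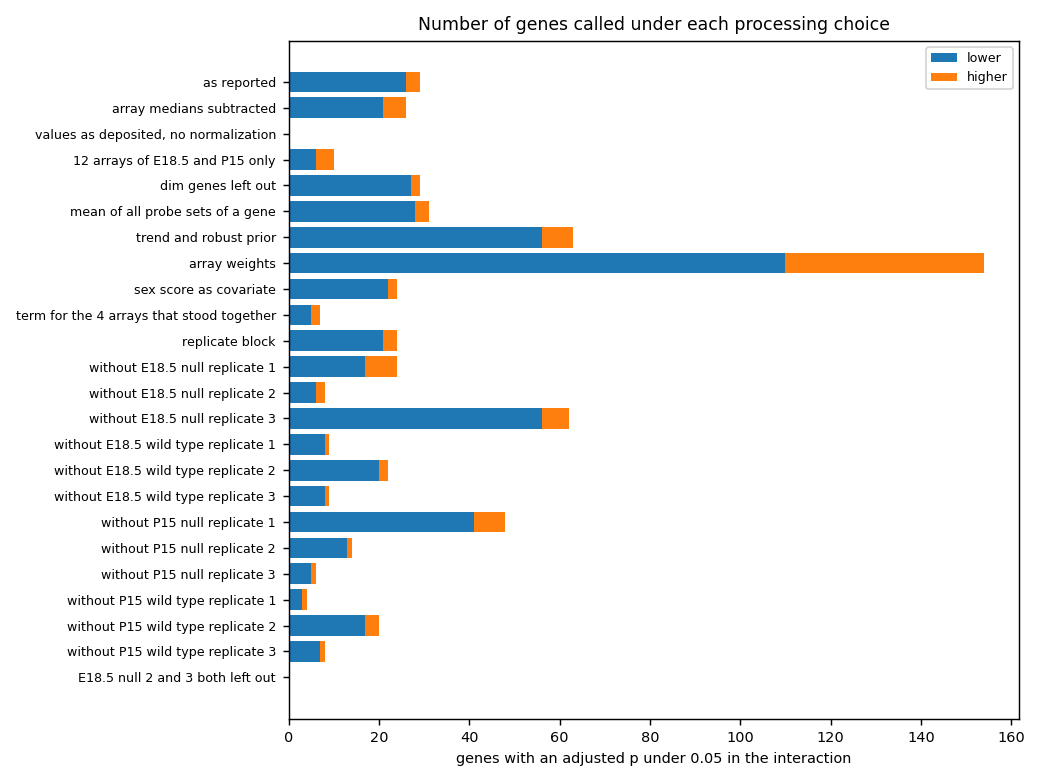
Number of genes called in the interaction (horizontal axis) under each processing choice or left-out array (vertical axis), split into lower (blue) and higher (orange) interaction values. The bars run from 0 genes, with the values as deposited or without both E18.5 null 2 and 3, to 154 with array weights, and lower genes outnumber higher ones in every bar above 0.

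Fast-twitch contractile genes had interactions below 0 throughout their list. Actn3, the alpha-actinin of fast muscle fibre Z discs, measured 6.21, 6.60 and 6.32 in the E18.5 null arrays and 5.04, 5.55 and 5.46 in the E18.5 wild-type arrays. At P15 it measured 6.08, 6.03 and 5.44 in the null and 6.73, 6.57 and 6.80 in the wild type. The order of the genotypes was thus reversed between the ages with no overlap at either. Actn3 fell by 0.53 in the null and rose by 1.35 in the wild type, an interaction of -1.88 ± 0.25 (adjusted p = 0.0079, limma).

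Mylpf, the phosphorylatable light chain of fast myosin, followed the same arrangement with little age change in the wild type. Its values were 6.68, 6.88 and 6.47 in the E18.5 null, 5.56, 5.90 and 6.01 in the E18.5 wild type, 5.28, 5.45 and 5.15 in the P15 null and 5.91, 5.86 and 5.95 in the P15 wild type. It fell by 1.39 in the null and its wild-type change was 0.09 (adjusted p = 0.65), which gave an interaction of -1.47 ± 0.19 (adjusted p = 0.0079, limma). Tnnc2 and Tnni2, the calcium-binding and inhibitory subunits of fast troponin, had interactions of -1.53 ± 0.22 and -1.37 ± 0.22. Myoz1, a Z-disc protein of fast fibres that binds calcineurin, had -1.36 ± 0.25, and the skeletal actin Acta1, named after its value was seen, had -1.26 ± 0.23. All 20 measured genes of the fast list were below 0, with a median of -1.14 against 0.03 over all genes tested. Of the 20, 6 were called lower, against 0.13% of all genes.

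Promoter sequences of 4 of these muscle genes are shown because the genes moved together and muscle regulatory factors of the MyoD family bind E-boxes, of which CAGCTG is a common form. The windows are the 250 bases before the annotated transcript start in RefSeq (GRCm38.p6), 5′ to 3′ on the gene's strand, with CAGCTG or TATAAA in capitals where present. Mylpf lies at chr7:127211358-127211607 (plus strand), Casq1 at chr1:172219896-172220145 (minus strand), Ckm at chr7:19410844-19411093 (plus strand) and Tnnc2 at chr2:164779735-164779984 (minus strand).
Mylpf: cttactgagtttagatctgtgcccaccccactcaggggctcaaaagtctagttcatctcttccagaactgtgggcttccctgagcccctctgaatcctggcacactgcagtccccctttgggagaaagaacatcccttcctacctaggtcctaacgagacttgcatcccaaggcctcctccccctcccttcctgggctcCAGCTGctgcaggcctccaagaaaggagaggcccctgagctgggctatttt
Casq1: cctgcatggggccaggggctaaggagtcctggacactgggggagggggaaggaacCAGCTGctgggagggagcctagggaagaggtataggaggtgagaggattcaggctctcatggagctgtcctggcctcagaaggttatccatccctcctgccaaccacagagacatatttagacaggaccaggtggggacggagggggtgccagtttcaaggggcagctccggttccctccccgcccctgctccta
Ckm: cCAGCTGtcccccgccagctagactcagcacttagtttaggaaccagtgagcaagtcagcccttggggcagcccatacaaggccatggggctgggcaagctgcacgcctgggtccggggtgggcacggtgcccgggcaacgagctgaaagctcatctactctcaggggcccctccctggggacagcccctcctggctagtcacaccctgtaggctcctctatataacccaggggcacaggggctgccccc
Tnnc2: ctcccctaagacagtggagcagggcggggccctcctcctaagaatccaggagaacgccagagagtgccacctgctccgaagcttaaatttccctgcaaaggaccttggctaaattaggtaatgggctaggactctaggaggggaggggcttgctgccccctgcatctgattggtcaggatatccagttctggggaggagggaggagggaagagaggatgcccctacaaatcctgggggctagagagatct
The motif begins 51 bases before the start in Mylpf, 195 in Casq1 and 249 in Ckm, and these letters are not in the Tnnc2 window. Other forms of the E-box were not searched, so the absence of an E-box from the Tnnc2 window was not tested. CAGCTG, which reads the same on both strands, was searched with TATAAA and a single exact form of the MEF2 consensus site. Both strands were searched, in windows that run from 250 bases before to 50 after the start. Of the 23 genes called lower that were not dim, 16 had 18 such windows in the table, and 10 of these windows, from 9 genes, held CAGCTG, against 16.3% of all 32851 windows. That form of the MEF2 site was in 0 of the 18 windows (0.11% of all) and TATAAA in 3 (13.62% of all). Other forms of the MEF2 site were not searched, so the absence of a MEF2 site from these windows was not tested. A match is a description of the letters and not a bound site.

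Slow and heart-type contractile genes differed in the same direction but mostly fell in both genotypes. Myl2, the slow and ventricular regulatory light chain, measured 5.43, 5.72 and 5.08 in the E18.5 null and 4.21, 4.76 and 4.62 in the E18.5 wild type. At P15 it measured 3.91, 3.60 and 3.35 in the null and 4.75, 4.19 and 4.48 in the wild type, again without overlap at either age. It fell by 1.79 in the null, its wild-type change was -0.06 (adjusted p = 0.85), and the interaction was -1.73 ± 0.29 (adjusted p = 0.028, limma). Myl4, the atrial and embryonic light chain, was the one gene called lower that fell in both genotypes, by 1.39 in the null and by 0.43 in the wild type. Of the 16 genes of this list, 14 fell in the null and 10 fell in the wild type, against 20.5% and 21.9% of all genes. Interactions were below 0 for 15 of the 16, with a median of -0.86, and 2 were called lower, against 0.13% of all genes. The exception was Ankrd1, a stress-inducible ankyrin repeat protein, at 0.26 ± 0.35 (adjusted p = 0.86), while its relative Ankrd2 of slow fibres was at -1.22 ± 0.26 (adjusted p = 0.088).

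Myosin heavy chains, named for their developmental order after their values were seen, showed the change from developmental to adult isoforms in both genotypes. Embryonic Myh3 fell by 4.23 in the null and by 3.25 in the wild type, and neonatal Myh8 fell by 3.71 and by 2.90. Adult fast Myh4 rose by 2.46 in the null and by 3.75 in the wild type, and Myh1 rose by 1.31 and 2.09. Fast Myh2 rose by 1.82 in the wild type, and its null change was 0.62 (adjusted p = 0.089). Each of these isoforms had a negative interaction, whether its level went down with age (Myh3 -0.98 ± 0.29, Myh8 -0.82 ± 0.26) or up (Myh4 -1.28 ± 0.34, Myh2 -1.21 ± 0.39, Myh1 -0.78 ± 0.26). None of the 5 was called, with adjusted p-values from 0.19 to 0.41 (limma). The fast myosin-binding protein Mybpc2 had the lowest interaction of the muscle lists, -2.21 ± 0.46 (adjusted p = 0.08), with E18.5 wild type 1 at 2.82 against 4.43 and 4.36 in the other 2 arrays of its group. Pvalb, the calcium buffer of fast fibres, rose by 2.23 and 2.97 and had -0.74 ± 0.18 (adjusted p = 0.14).

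**Figure D3:**
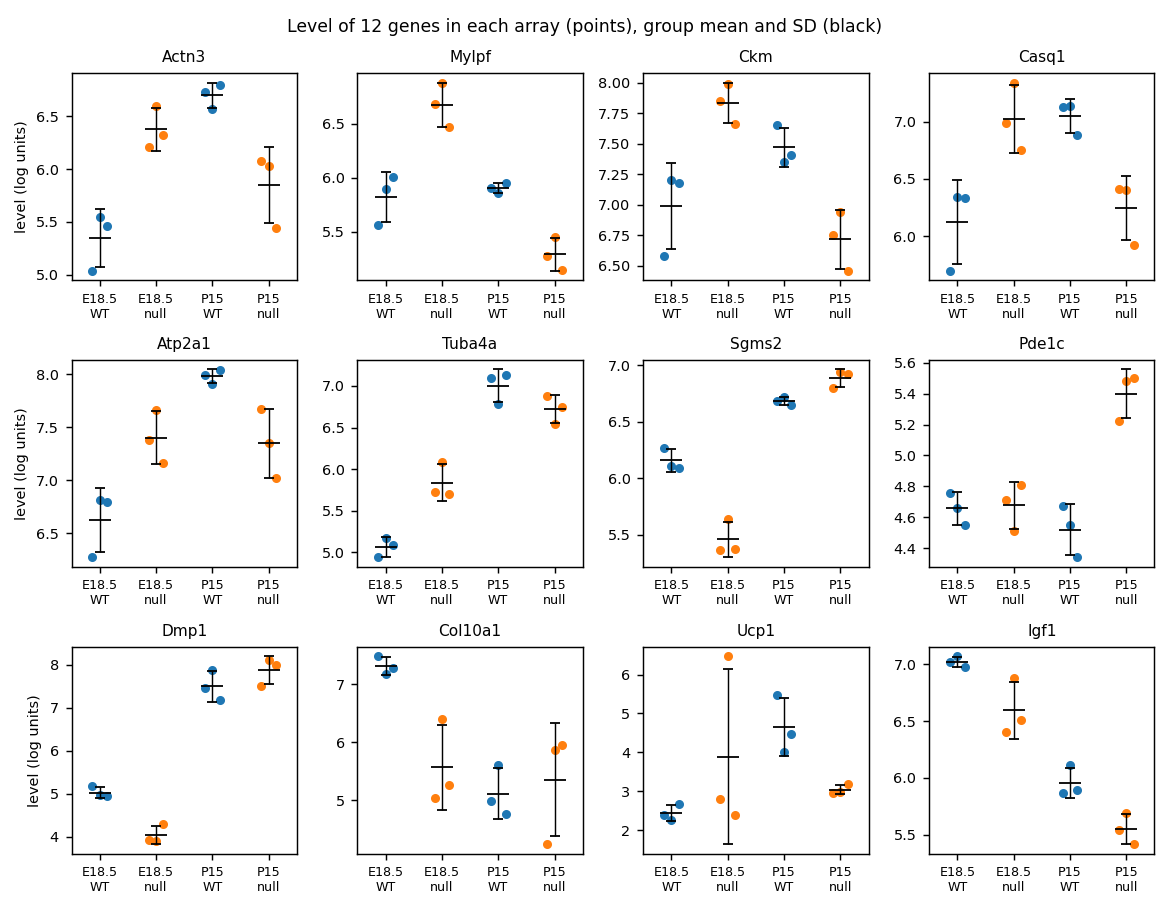
Level of 12 genes in log units (vertical axes, scaled for each gene and not starting at 0) in each array (points) of the 4 groups (horizontal axis), with the group mean and SD in black. The null lies above the wild type at E18.5 and below it at P15 for Actn3, Mylpf, Ckm, Casq1 and Atp2a1, the P15 null stands alone for Pde1c, and E18.5 null 2 lies far above the other E18.5 arrays for Ucp1, which is also high in the 3 P15 wild-type arrays.

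Of the 28 genes for muscle calcium handling, energy supply and excitation, 8 were called lower, against 0.13% of all genes. Ampd1, the muscle AMP deaminase of the purine nucleotide cycle, had the largest interaction of any called gene. It measured 6.08, 6.01 and 5.69 in the E18.5 null, 4.62, 5.23 and 5.10 in the E18.5 wild type, 3.93, 4.30 and 3.94 in the P15 null and 5.10, 5.10 and 5.28 in the P15 wild type. The wild-type groups overlapped between ages while the null groups were far apart, and the interaction was -2.04 ± 0.30 (adjusted p = 0.018, limma). Casq1, which stores calcium in the sarcoplasmic reticulum of fast fibres, measured 6.99, 7.34 and 6.75 against 5.70, 6.34 and 6.33 at E18.5, and 6.41, 6.40 and 5.92 against 7.13, 7.14 and 6.88 at P15, null before wild type. Casq1 fell by 0.78 in the null and rose by 0.93 in the wild type, an interaction of -1.71 ± 0.26 (adjusted p = 0.023, limma).

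Ckm, the muscle creatine kinase, measured 7.85, 7.99 and 7.66 in the null and 6.58, 7.20 and 7.18 in the wild type at E18.5, then 6.75, 6.94 and 6.46 in the null and 7.65, 7.35 and 7.41 in the wild type at P15. The genotypes again changed places without overlap, and Ckm fell by 1.11 in the null and rose by 0.48 in the wild type (interaction -1.60 ± 0.25, adjusted p = 0.024, limma). Atp2a1, the calcium pump of the fast-fibre sarcoplasmic reticulum, differed from these in its null time course: it rose by 1.36 in the wild type, and its null change was -0.05 (adjusted p = 0.83), with an interaction of -1.41 ± 0.24. Pygm, the muscle glycogen phosphorylase, had -1.33 ± 0.23, Eno3, the muscle enolase, -1.16 ± 0.20, the calcium channel subunit Cacng1 -1.21 ± 0.20 and the membrane protein Popdc2 -0.89 ± 0.14. Eno3 and Cacng1 were named after their values were seen. All 28 genes of the list were below 0, with a median of -0.91. In the wild type 13 rose and in the null 3, against 19.7% and 20.3% of all genes.

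Called genes outside the lists were in part muscle genes too. Klhl31, a kelch-like protein of skeletal muscle, measured 5.87, 6.09 and 5.39 in the E18.5 null, 4.61, 5.20 and 5.09 in the E18.5 wild type, 4.67, 4.76 and 4.14 in the P15 null and 5.30, 5.43 and 5.40 in the P15 wild type. Its interaction was -1.67 ± 0.29, and a second probe set of the gene gave -1.60. Apobec2, a muscle member of the cytidine deaminase family, had -1.52 ± 0.25, and Ldb3, which ties alpha-actinin to the Z disc, had -1.36 ± 0.23. Yipf7, a membrane protein of the Yip1 domain family, was near the dim level (E18.5 wild-type mean 3.31, highest array 4.18) at -1.46 ± 0.19. The thin-filament nucleator Lmod3 (-1.22 ± 0.22) was named after its value was seen. So was the non-coding A930016O22Rik (-0.89 ± 0.15), which overlaps Ckm on the opposite strand in the RefSeq annotation. Tuba4a, an alpha-tubulin found in muscle, platelets and neurons, was the only gene called lower that rose in both genotypes, by 0.89 in the null and 1.94 in the wild type (interaction -1.05 ± 0.17), and its P15 arrays overlapped between genotypes (6.88, 6.54 and 6.75 against 7.10, 6.78 and 7.13). Tuba4a too was named after its value was seen. The remaining 3 genes called lower, the olfactory receptor gene Olfr1355, the trace amine receptor gene Taar7e and Gm867, were dim.

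Across the 3 muscle lists, 63 of 64 genes had an interaction below 0, against 45% of all genes, and 57 of 64 had one with an unadjusted p under 0.05, against 4.04% of all. The median gene was 0.65 higher in the null at E18.5 and 0.33 lower at P15, so both ages contributed. The mean level of the 64 genes was 6.10, 6.38 and 5.87 in the E18.5 null arrays, 5.25, 5.66 and 5.54 in the E18.5 wild type, 5.41, 5.26 and 5.11 in the P15 null and 5.71, 5.53 and 5.62 in the P15 wild type. The genotypes did not overlap at either age. In the null 46 of the 64 genes fell and 6 rose, against 20.5% and 20.3% of all genes. In the wild type 15 fell and 20 rose, against 21.9% and 19.7% of all genes, so the share that fell was near that of all genes there. Leaving out single arrays kept 61 to 64 genes below 0 and moved the median between -1.17 and -0.87, with 2 (without P15 wild type 1) to 23 (without E18.5 null 3) of them called. Without both E18.5 null 2 and 3 the count was 63 and the median -0.98, with 0 of the 64 called. Muscle is not part of the vestibular epithelium. The amount of muscle dissected with each sample was not measured, and its part in the result was not tested.

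As a list, regulators of the muscle lineage differed less than the contractile genes. Myod1, the master factor of myogenesis, measured 5.13, 5.49 and 5.32 in the E18.5 null, 4.61, 4.74 and 4.79 in the E18.5 wild type, 4.38, 4.36 and 4.30 in the P15 null and 4.45, 4.25 and 4.02 in the P15 wild type. The genotypes were separate at E18.5 and overlapped at P15, unlike for Actn3, Mylpf and Myl2 above. Of the 64 genes of the 3 muscle lists, 22 showed the crossover without overlap at either age (0.732% of all genes). The interaction of Myod1 was -0.49 ± 0.15 (adjusted p = 0.33, limma) and that of the related factor Myf5 -0.83 ± 0.24 (adjusted p = 0.27). The related factor Myf6 was at -1.11 ± 0.42 (adjusted p = 0.48), near the median of the fast list. The receptor subunit Chrnb1 had -0.38 ± 0.16 (adjusted p = 0.56), and Pax7, the marker of satellite cells, -0.01 ± 0.13. Of the 20 regulators and acetylcholine receptor subunits, 15 were below 0 and none was called. Their median was -0.30, against -1.14 in the fast list and -0.86 in the slow list. With array medians subtracted it was -0.17, where the median of all genes was 0.115.

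**Figure D4:**
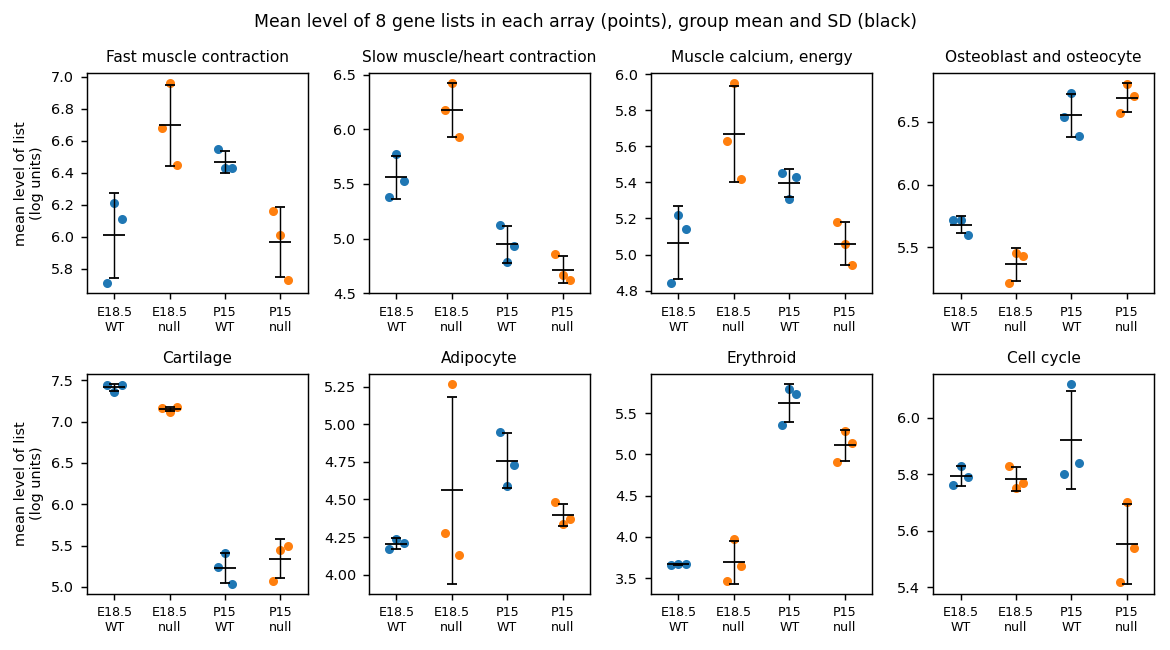
Mean level of 8 gene lists in log units (vertical axes, scaled for each list and not starting at 0) in each array (points) of the 4 groups (horizontal axis), with the group mean and SD in black. The means of the 3 muscle lists change order between the ages, with overlap between genotypes for the slow list at P15, and bone and cartilage lists start lower in the E18.5 null and overlap the wild type at P15.

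The 3 genes called higher differed in their time courses. Sgms2, a sphingomyelin synthase of the plasma membrane that is needed for bone mineralization, measured 5.36, 5.64 and 5.37 in the E18.5 null, 6.27, 6.11 and 6.09 in the E18.5 wild type, 6.80, 6.94 and 6.92 in the P15 null and 6.68, 6.72 and 6.65 in the P15 wild type. It was lower in every null array at E18.5 and higher in every null array at P15. Sgms2 rose by 1.43 in the null and by 0.53 in the wild type (interaction 0.90 ± 0.14, adjusted p = 0.024, limma). Pde1c, a calmodulin-dependent phosphodiesterase, measured 4.71, 4.51 and 4.81 in the E18.5 null, 4.76, 4.66 and 4.55 in the E18.5 wild type, 5.22, 5.48 and 5.50 in the P15 null and 4.67, 4.55 and 4.34 in the P15 wild type. Only the P15 null group stood apart. It rose by 0.73 in the null, its wild-type change was -0.13 (adjusted p = 0.35), and the interaction was 0.86 ± 0.15 (adjusted p = 0.038, limma). The third, Erich6b (1.32 ± 0.15, adjusted p = 0.0071), was dim, with no array above 2.84.

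Genes with the next smallest p-values in the upward direction missed the threshold. Oxct2a, a ketone-body transferase, was at 0.94 ± 0.19 (adjusted p = 0.073), the ecto-5′-nucleotidase Nt5e at 0.56 ± 0.11 (adjusted p = 0.073), and the citrate transporter Slc13a5, which is expressed in bone and liver, at 0.90 ± 0.19 (adjusted p = 0.088). The bone matrix protein Dmp1 and the cartilage protein Ucma were among them and are described with their lists.

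Most bone genes had interactions above 0. Dmp1, a phosphoprotein of osteocytes, measured 3.93, 3.90 and 4.29 in the E18.5 null, 5.17, 4.96 and 4.95 in the E18.5 wild type, 7.50, 8.12 and 7.99 in the P15 null and 7.45, 7.87 and 7.17 in the P15 wild type. The null arrays were all lower at E18.5 and overlapped the wild type at P15. Dmp1 rose by 3.83 in the null and by 2.47 in the wild type, and its interaction, 1.36 ± 0.29, was not called (adjusted p = 0.08, limma). Ibsp, a mineral-binding sialoprotein, rose by 2.87 and 1.51 (interaction 1.36 ± 0.34, adjusted p = 0.16), and Phex, the endopeptidase of osteocytes that restrains phosphate loss, rose by 2.97 and 2.01 (0.96 ± 0.22, adjusted p = 0.11). Both had every null array below every wild-type array at E18.5. Sp7, the transcription factor of osteoblasts, rose by 1.20 and 0.59 (0.61 ± 0.16, adjusted p = 0.21). Of the 15 osteoblast and osteocyte genes, 14 were above 0, against 55% of all genes, and 6 had an unadjusted p under 0.05, against 4.47% of all. None was called, and the median was 0.45 with a range of 0.26 to 0.54 when single arrays were left out. Of the 15 osteoclast genes 11 were above 0 with a median of 0.05. In each genotype 12 of them rose, against 20.3% of all genes in the null and 19.7% in the wild type.

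Cartilage genes fell from E18.5 to P15 in both genotypes, by a median that was smaller in the null. All 24 fell in the wild type and 21 fell in the null, against 21.9% and 20.5% of all genes. The median change was -2.24 in the wild type and -1.90 in the null. Ucma, a matrix protein of cartilage, measured 6.60, 6.81 and 6.47 in the E18.5 null, 7.18, 7.15 and 7.34 in the E18.5 wild type, 6.77, 6.97 and 7.08 in the P15 null and 6.50, 6.53 and 6.53 in the P15 wild type. It was lower in every null array at E18.5 and higher in every null array at P15, and had an interaction of 1.02 ± 0.22 (adjusted p = 0.097). Col10a1, the collagen of hypertrophic cartilage, fell by 2.20 in the wild type, from 7.48, 7.18 and 7.28 to 4.98, 5.60 and 4.76. In the null it was scattered at both ages (5.03, 6.40 and 5.27, then 4.24, 5.87 and 5.96), with a change of -0.21 (adjusted p = 0.71) and an interaction of 1.99 ± 0.56 (adjusted p = 0.27). The matrix proteins Comp and Col9a2 had 0.58 ± 0.17 and 0.44 ± 0.15, and the matrilin Matn1, one of 3 members below 0, had -0.66 ± 0.52. Of the 24 genes 21 were above 0 and 10 of these had an unadjusted p under 0.05, against 55% and 4.47% of all genes. None was called, and the median was 0.36 (0.29 to 0.45 without single arrays).

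Fat, erythroid, B cell, granulocyte and cell cycle lists had medians below 0 without a called gene. Cidec, a lipid droplet protein, rose by 1.19 in the wild type and had a null change of -0.61 (adjusted p = 0.14), with an interaction of -1.80 ± 0.45 (adjusted p = 0.16). Ucp1, the uncoupling protein of brown fat, measured 2.79, 6.47 and 2.39 in the E18.5 null, 2.39, 2.25 and 2.67 in the E18.5 wild type, 2.96, 2.99 and 3.18 in the P15 null and 5.48, 4.02 and 4.48 in the P15 wild type. Its interaction was the lowest of all genes, -3.06 ± 1.20 (adjusted p = 0.50), and 1 array of the E18.5 null carried the high value. Of the 21 adipocyte genes 18 were below 0, with a median of -0.50 that was -0.14 without E18.5 null 2. At P15 the wild-type arrays were all higher than the null in the mean of this list (4.95, 4.59 and 4.73 against 4.48, 4.34 and 4.37).

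Most erythroid, B cell and granulocyte genes rose with age in both genotypes. Of 23 macrophage and microglia genes 5 rose and 6 fell in the null, and 4 rose and 7 fell in the wild type. These were near the shares of all genes, 20.3% and 20.5% in the null and 19.7% and 21.9% in the wild type. Spib, a transcription factor of B cells, rose by 2.48 in the null and by 3.24 in the wild type (interaction -0.76 ± 0.17, adjusted p = 0.099), and the membrane skeleton protein of red cells Sptb rose by 1.39 and 1.88 (-0.49 ± 0.18, adjusted p = 0.47). The immunoglobulin heavy chain gene Ighg3 rose by 1.69 in the wild type, and its null change was 0.41 (adjusted p = 0.11), with -1.28 ± 0.28 for the interaction (adjusted p = 0.088). Interactions were below 0 for 17 of 18 erythroid genes (median -0.59), 18 of 22 B cell genes (-0.31) and 22 of 26 granulocyte genes (-0.33). Without both E18.5 null 2 and 3 these medians were -0.28, -0.11 and -0.20. The macrophage and microglia list (median 0.08) and the T and NK cell list (0.03) did not lie below 0, though the first was at -0.02 without P15 wild type 3 and the second at -0.01 at the lowest with 1 array left out. All 29 cell cycle genes were below 0, with a median of -0.33: Aurka, a mitotic kinase, had -0.59 ± 0.22 and the replication helicase subunit Mcm2 -0.50 ± 0.19. At E18.5 the cell cycle list was at 5.83, 5.75 and 5.77 in the null and 5.76, 5.83 and 5.79 in the wild type, and at P15 at 5.42, 5.70 and 5.54 against 5.80, 6.12 and 5.84. The genotypes overlapped at E18.5 and did not overlap at P15.

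Sensory and supporting cell genes lay nearer to the median of all genes, 0.03, than the muscle lists and the osteoblast and osteocyte list did. The osteoclast list, at 0.05, lay nearer still. Of 32 hair cell genes 24 were above 0. An unadjusted p under 0.05 was found for 6 above 0 and 2 below (4.47% and 4.04% of all genes). The median was 0.21 (0.13 without E18.5 null 2, 0.12 without both E18.5 null 2 and 3 and 0.33 as deposited). As deposited, the median of all genes was 0.14. Tmie, a subunit of the mechanotransduction complex, rose by 0.85 in the null, and its wild-type change was 0.19 (adjusted p = 0.21), with an interaction of 0.66 ± 0.17 (adjusted p = 0.17). Pcdh15, a tip-link cadherin, fell by 0.61 in the wild type, and its null change was -0.13 (0.49 ± 0.17, adjusted p = 0.42), but a second probe set of the gene gave an interaction of -0.05. The 2 members furthest below 0 were Xirp2 (-1.08 ± 0.27), an actin-binding protein that muscle also expresses, and Chrna9 (-0.82 ± 0.24), a subunit of the efferent acetylcholine receptor. Of 20 supporting cell genes 19 were above 0, with a median of 0.14 (0.24 as deposited). The adhesion molecule Epcam fell by 0.83 in the wild type, to 5.27, 5.53 and 5.20, while the P15 null arrays were at 5.98, 5.96 and 5.80 (interaction 0.61 ± 0.16, adjusted p = 0.18).

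Genes of the other vestibular compartments gave no call either. Otoconia and membrane genes had a median of 0.02, which fell to -0.03 without E18.5 null 2, and Otog, a glycoprotein of the acellular membranes, had 0.58 ± 0.23. Dark cell genes, which supply potassium to the endolymph, had a median of -0.03 that was 0.08 with array medians subtracted. The median of all genes was 0.115 in that setting and 0.14 as deposited. Among the dark cell genes the potassium channel Kcnj16 rose by 1.89 in the null and by 1.12 in the wild type (0.77 ± 0.26, adjusted p = 0.42, limma). Periotic fibrocyte genes had a median of 0.08 (0.03 to 0.15 with 1 array left out, 0.23 with array medians subtracted and 0.25 as deposited), with the secreted proteins Coch at 0.34 ± 0.13 and Otor at 0.62 ± 0.24. Vestibular ganglion genes rose with age in both genotypes (20 of 25 in the null, 21 in the wild type, against 20.3% and 19.7% of all genes). Their median interaction of -0.21 was 0.12 without E18.5 null 2. Myelin genes had a median of -0.08, which was 0.03 with array medians subtracted, and Mbp, the myelin basic protein, rose by 1.41 and 1.69 (-0.28 ± 0.09, adjusted p = 0.41).

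**Figure D5:**
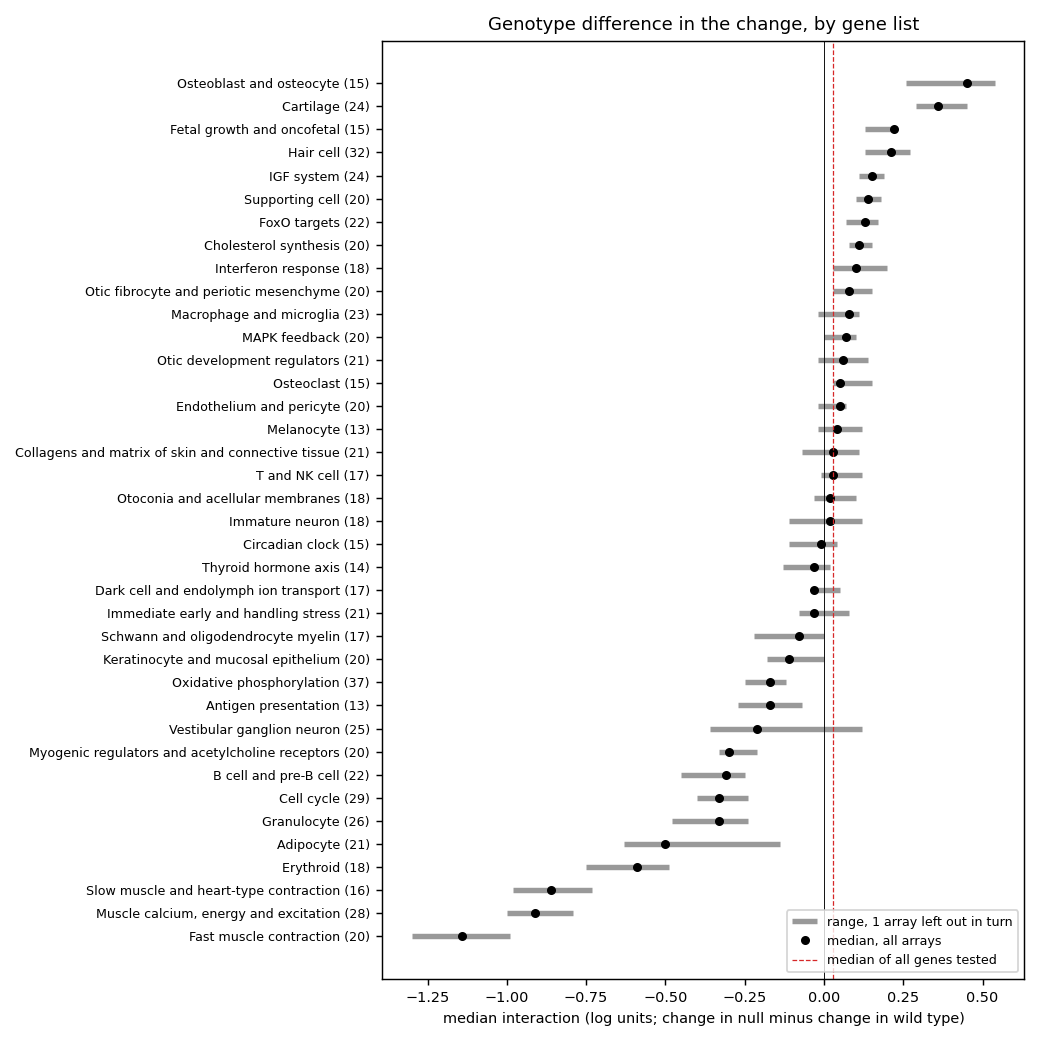
Median interaction of each gene list (horizontal axis, log units, points) with its range over the 12 fits that leave out 1 array (grey bars) and the median of all genes tested (dashed line, 0.03), lists in order of their medians with the number of measured genes in parentheses. The 3 muscle lists lie lowest, at -1.14, -0.91 and -0.86, and bone and cartilage lie highest, at 0.45 and 0.36.

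The probe set of the targeted gene did not mark the null arrays by an absent signal. Igf1 measured 6.40, 6.88 and 6.51 in the E18.5 null, 7.02, 7.07 and 6.98 in the E18.5 wild type, 5.54, 5.69 and 5.42 in the P15 null and 5.87, 6.11 and 5.89 in the P15 wild type. The null arrays were lower than the wild type at both ages without overlap. Null minus wild type was -0.43 at E18.5 (adjusted p = 0.16) and -0.41 at P15 (adjusted p = 0.48, limma), so neither difference was called. The position of its probes relative to the deleted part was not examined, and a probe outside that part checks nothing. The fall with age was 1.05 in the null and 1.07 in the wild type, with an interaction of 0.02 ± 0.17 (adjusted p = 0.97, limma). The IGF system as a whole fell with age: 19 of 24 genes fell in each genotype. Of all genes 20.5% fell in the null and 21.9% in the wild type. The receptor gene Igf1r fell by 0.40 in the null and by 0.75 in the wild type (0.34 ± 0.11, adjusted p = 0.34), and the adaptor gene Irs1 by 0.81 and 1.12 (0.31 ± 0.12, adjusted p = 0.50; a dimmer probe set of Irs1 gave 0.10). Igfbp6, a binding protein that prefers IGF2, rose by 0.46 in the wild type, and its null change was 0.04 (-0.42 ± 0.10, adjusted p = 0.16). Pappa, a protease that frees IGFs from binding proteins, had 0.53 ± 0.18 (adjusted p = 0.43). Interactions were above 0 for 20 of the 24, none was called, and the median was 0.15 (0.28 with array medians subtracted). The median of all genes was 0.115 in that setting.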

How the data were processed

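RNA was labelled for Affymetrix Mouse Gene 1.1 ST arrays from 100 ng of total RNA, per the labels' protocols. The values used are the log intensities of 28853 probe sets in 18 arrays that the authors deposited as 1 table. How probes were summarized, and the base of the log, were not stated in the labels or headers. The medians of the deposited arrays ran from 3.88 to 4.82, so all 18 arrays were quantile normalized, which removes overall differences between groups. Probe sets with 1 symbol (21789) were named from the platform annotation, updated through the RefSeq table of GRCm38.p6 (21698 matched), and the probe set with the highest mean stood for a gene. This left 19938 genes.

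The 6 groups were fitted in 1 model with limma 3.58.1 under R 4.3.3 (functions lmFit and eBayes; the prior had 2.98 degrees of freedom), and the interaction was tested with Benjamini-Hochberg adjustment. The comparison, the genes and the 38 lists (742 of 801 genes measured) were chosen with earlier results of these data known. The genes named were Igf1, the 15 largest called values in each direction among genes that were not dim, the smallest p-values filling a direction to 10, up to 4 called dim genes a direction and 4 genes of each list by p. Others are said to be named after their values were seen, and list members without such a remark that fall outside the rule (such as Ucp1, Pax7 or Matn1) were also named afterwards. On simulated arrays of this interaction, with 50 genes changed per size among 19938, 20% of changes of 0.5 log units, 68% of 1, 92% of 1.5 and 96% of 2 were recovered. The simulation gave 140 calls, against 29 in the data, so its p-value cutoff after adjustment was looser. These shares may therefore overstate recovery in the real arrays. The number of arrays limits the precision.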

Additional observations from a re-analysis of the deposited data

Results flagged for a closer look

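The test of the interaction is itself a test that the age change differs between genotypes, and each of the 29 genes it called is therefore given here with its value in log units (limma, adjusted p under 0.05). Contractile and Z-disc genes of muscle had Actn3 at -1.88, Myl2 at -1.73, Tnnc2 at -1.53, Mylpf at -1.47, Tnni2 at -1.37, Ldb3 at -1.36, Myoz1 at -1.36, Acta1 at -1.26, Lmod3 at -1.22 and Myl4 at -0.96. Muscle genes of metabolism, calcium and membrane had Ampd1 at -2.04, Casq1 at -1.71, Ckm at -1.60, Atp2a1 at -1.41, Pygm at -1.33, Cacng1 at -1.21, Eno3 at -1.16 and Popdc2 at -0.89. Other genes called lower were Klhl31 at -1.67, Apobec2 at -1.52, Yipf7 at -1.46, Tuba4a at -1.05, A930016O22Rik at -0.89 and the dim Taar7e at -1.40, Olfr1355 at -1.24 and Gm867 at -1.06. The genes called higher were Sgms2 at 0.90, Pde1c at 0.86 and the dim Erich6b at 1.32.

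The calls of single genes were not equally stable. Actn3, Mylpf and Yipf7 kept theirs in 21 of 23 alternative fits, Tnnc2 in 18, Ampd1 in 17, Casq1 in 16 and Ckm in 15. Sgms2 kept its call in 14 of 23, Atp2a1 in 9, and Eno3, Myoz1 and Pde1c in 6. Actn3 ranged from -2.08 to -1.67 and Mylpf from -1.57 to -1.34 over these fits, with adjusted p-values of 0.0042 to 0.2 and 0.0021 to 0.24.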

How the results depend on the processing

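The count of called genes moved with the processing. The sign of the 29 genes was kept in every fit that tested them, which their selection from these same arrays largely fixes. Against 29 calls (26 lower, 3 higher), there were 0 with the values as deposited (0 lower and 0 higher; limma, 993 genes at an unadjusted p under 0.05), 10 from the 12 arrays of E18.5 and P15 alone (6 lower), 63 with a trend and a robust prior (56 and 7), 154 with array weights (110 and 44), 7 when the 4 arrays set apart by the third component had their own coefficient (5 lower) and 85 at an adjusted p under 0.1 (69 and 16). With array medians subtracted, 5 were higher. Leaving out E18.5 null 2 and 3 together, chosen after seeing the data, gave 0 calls (0 lower and 0 higher; limma, 1043 genes at an unadjusted p under 0.05). Leaving out 1 array gave 4 (without P15 wild type 1) to 62 calls (without E18.5 null 3), 3 to 56 lower and 1 to 7 higher. The slope of the null change on the wild-type change, 0.869, was 0.824 with array medians subtracted, 0.824 as deposited, 0.894 without dim genes, 0.893 without both E18.5 null 2 and 3, and 0.835 to 0.904 with 1 array left out. The cause of these shifts was not tested. The median interaction of all genes was 0.115 with array medians subtracted and 0.14 as deposited, against 0.025. With the replicate block 24 genes were called (21 lower, 3 higher), 19 of them among the 29. With Xist minus the Y-linked mean as a covariate 24 genes were called (22 lower, 2 higher), 24 of them among the 29. Replicate numbers did not pair the samples: the correlation of deviations was over 0.1 in 1 of 18 same-numbered pairs (-0.136 to 0.238) and in 2 of 36 others. Signal over background limits the dim genes, for which no detection call was used here.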

Other observations

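Of 37 genes of oxidative phosphorylation, 26 rose in the wild type and 10 in the null, against 19.7% and 20.3% of all genes, and the difference between these counts was not tested. Interactions were below 0 for 31 of the 37, and 11 of these had an unadjusted p under 0.05, against 45% and 4.04% of all genes. None was called, and the median was -0.17 (-0.25 to -0.12 without single arrays, -0.10 with array medians subtracted and -0.08 as deposited). The median of all genes was 0.115 with array medians subtracted and 0.14 as deposited. Sdhc, an anchor subunit of succinate dehydrogenase, measured 6.67, 6.89 and 6.77 in the E18.5 null, 6.31, 6.22 and 6.44 in the E18.5 wild type, 6.52, 6.67 and 6.66 in the P15 null and 6.73, 6.63 and 6.78 in the P15 wild type. It rose by 0.39 in the wild type, and its null change was -0.17 (adjusted p = 0.12), with an interaction of -0.56 ± 0.12 (adjusted p = 0.08, limma). Cyc1, the cytochrome of complex III, had -0.45 ± 0.13, and Cox5b, a subunit of complex IV, -0.42 ± 0.13, with -0.26 from its other probe set. These enzymes are abundant in muscle, and the muscle lists moved the same way in these arrays. The part of muscle in this result was not tested.

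Cholesterol synthesis genes had 18 of 20 interactions above 0 (55% of all genes were) with a median of 0.11, which was 0.21 with array medians subtracted and 0.24 as deposited. The median of all genes moved as well, from 0.025 to 0.115 with array medians subtracted and to 0.14 as deposited. FoxO targets had 17 of 22 above 0 with a median of 0.13, which was 0.07 at the lowest with 1 array left out and 0.23 as deposited. Of 15 fetal growth genes, 12 fell in each genotype, against 20.5% of all genes in the null and 21.9% in the wild type. Their median interaction was 0.22 (0.13 at the lowest with 1 array left out, 0.36 as deposited). In the thyroid hormone list Ttr, the carrier made by liver and choroid plexus, rose by 2.31 in the wild type and had a null change of 0.30 (interaction -2.01 ± 0.75, adjusted p = 0.47). The antimicrobial lectin Reg3g rose by 2.94 in the null and had a wild-type change of 0.90 (2.04 ± 0.64, adjusted p = 0.34). The chemokine gene Cxcl10 rose by 1.10 in the null and had a wild-type change of -0.06 (1.16 ± 0.38, adjusted p = 0.38).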
